A study of Mus musculus with 26 samples.

Results

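R-spondins are secreted proteins that strengthen Wnt signalling, and the 9 genes of their circuit were followed here through the mesenchyme of the developing mouse reproductive tract. They comprise 4 ligands (Rspo1, Rspo2, Rspo3 and Rspo4), 3 receptors (Lgr4, Lgr5 and Lgr6) and 2 membrane ubiquitin ligases (Znrf3 and Rnf43). The genes were chosen by name, and all 9 were found among the 41442 gene rows of each of 2 RNA-seq count tables. Rspo2 was known from earlier results of these data to differ widely between the sexes at E16.5 (embryonic day), a difference that also entered its change with age, so its fetal values are a description without a test. The other 8 joined as its ligand relatives, receptors and ligases.

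ZNRF3 and RNF43 remove Frizzled receptors from the cell surface and so hold Wnt signalling down. An R-spondin that bridges one of these ligases to an LGR receptor takes the ligase off the membrane, which leaves more Frizzled for Wnt ligands. Both ligase genes are themselves targets of Wnt/beta-catenin signalling, and mesenchymal R-spondins and Wnt ligands are known to act on the neighbouring epithelium of the reproductive ducts.

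The libraries came from sorted cells that carry a red fluorescent reporter (Rosa-Tomato). Gli1+ cells were marked by Gli1-CreER, a tamoxifen-dependent recombinase expressed under the hedgehog target gene Gli1, and Amhr2+ cells by Amhr2-Cre, expressed under the gene of the anti-Müllerian hormone receptor. By the labels, dams of both genotypes received tamoxifen at 1 mg on E12.5 and again on E13.5, so every group shares that treatment. A Gli1+ cell is one that had expressed Gli1 around those days, or a descendant of such a cell. That window does not apply to Amhr2-Cre, which is not a CreER. Gli1+ cells from the mesonephros, the fetal organ that carries the ducts of both sexes, gave 3 libraries each of females and males at E14.5 and at E16.5. Female neonatal uterus, labelled E19.5, gave 3 libraries of Amhr2+ and 3 of Gli1+ cells. The labels do not say that libraries came from separate animals or litters, so p-values measure the spread between these libraries, which may be technical. Fetal and uterine libraries were made with different kits and form separate tables, so no level is compared between them.

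Totals per library were 23382983 to 64602477 counts for fetal and 28709191 to 37541045 counts for uterine samples. All 5 genes of a sex check followed the labels at both ages. Mesenchymal markers (11 genes, among them Pdgfra, Col1a1 and Twist1) summed to 34307 to 65105 CPM (counts relative to the scaled library total) in the fetal libraries, and 10 duct epithelial markers to 49.6 to 82.2 CPM. In 1 E14.5 female library erythroid genes summed to 899 CPM, against at most 49.5 CPM in the other groups' fetal libraries.

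Rspo1 and Rspo3 were by far the most abundant ligand transcripts in every group, measured as CPM per kilobase of exon, the scale on which genes of different length can be compared. In E14.5 females Rspo3 stood at 14.6 ± 0.675 (SD, n = 3) and Rspo1 at 13.4 ± 0.681 CPM per kb, and their libraries overlapped. In E14.5 males the order was the same, 20.8 ± 0.979 and 18.4 ± 0.496 CPM per kb, with no overlap. At E16.5 the order differed by sex. Rspo1 led in females, at 41.7 ± 3.62 against 27.4 ± 1.23 CPM per kb for Rspo3, whereas Rspo3 led in males, at 46.8 ± 2.56 against 23.3 ± 4.02 CPM per kb for Rspo1. Rspo1 was also first in both uterine groups, apart from Rspo3 in Amhr2+ and overlapping with it in Gli1+ cells. In Amhr2+ cells the margin of Rspo3 over Rspo2 was small, at 6.07 against 2.20 CPM per kb, or 6.08 against 3.36 by the longest transcript.

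Lgr4 was the main receptor transcript of the fetal libraries, and Lgr6 that of the uterine libraries by merged exon length. Lgr4 made up 83.1 to 96.0% of the length-scaled LGR sum in the 12 fetal libraries. Lgr6 made up 50.7 to 71.2% of that sum in Amhr2+ and 71.5 to 76.0% in Gli1+ uterine libraries. Scaled by the longest transcript, Lgr6 made up 46.2% and Lgr4 47.6% in Amhr2+ replicate 3, and Lgr6 stayed the larger in the other 5 uterine libraries. Lgr5 reached at most 3.25% of the sum in any library, or 6.18% by the longest transcript. Of the ligases, Znrf3 far outweighed Rnf43, whose share of their sum lay between 7.75 and 14.2% over all 18 libraries.

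**Figure D1:**
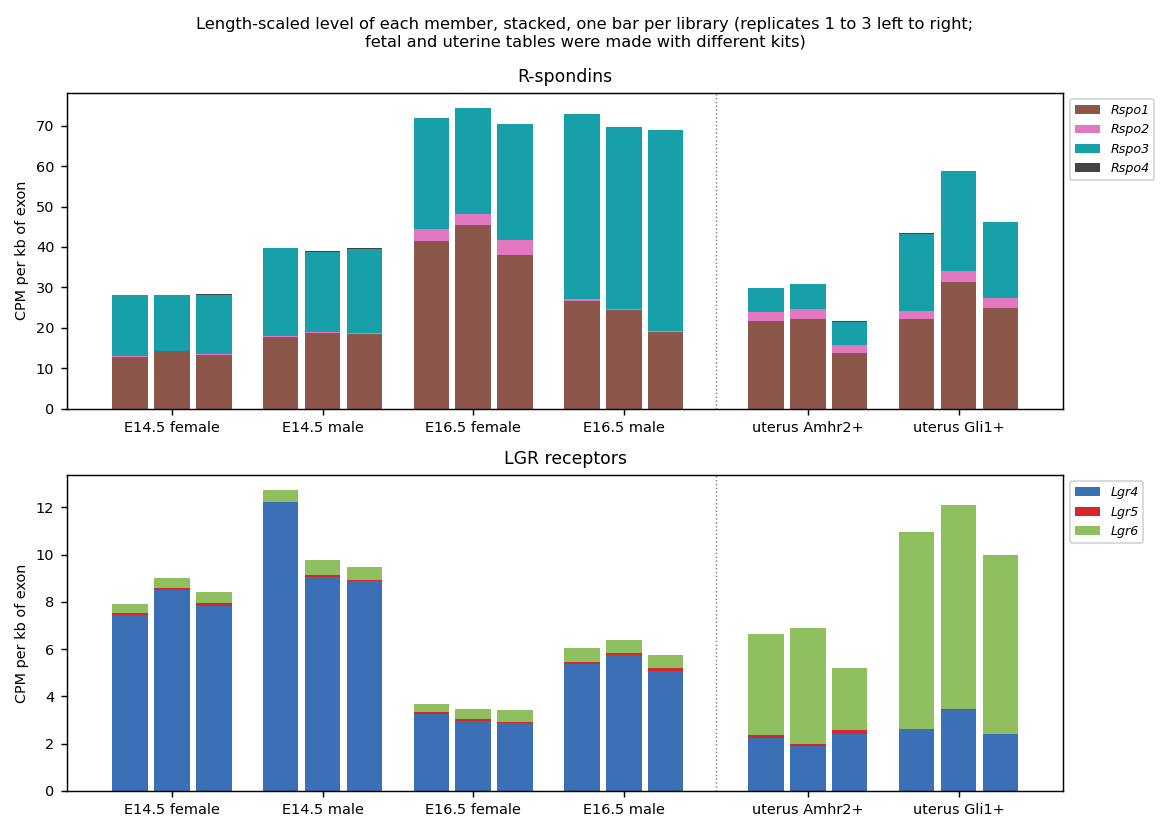
Stacked bars give the level of each R-spondin (top) and LGR (bottom) in CPM per kb of exon, 1 bar per library, with the fetal and the uterine table separated by a dotted line. The R-spondin sum of both E16.5 groups lies between 68.9 and 74.5 CPM per kb, with Rspo1 the larger block in females and Rspo3 in males.

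Rspo1, a ligand best known for its part in ovary development, showed opposite sex differences at the 2 ages. Its 3 E14.5 female libraries held 24.8, 27.4 and 25.8 CPM and the males 34.5, 36.4 and 35.9 CPM. At E16.5 females held 80.6, 87.9 and 73.9 CPM and males 51.7, 47.4 and 36.6 CPM. Every male library lay above every female library at E14.5, and every female library above every male library at E16.5. Females over males, the log2 fold change at E14.5 was -0.45 (SE 0.107), with an adjusted p of 0.0175 by edgeR's quasi-likelihood test, which is the test behind every adjusted p given here. At E16.5 it was 0.84 (SE 0.103, adjusted p 1.63e-05). The change of the sex difference with age, tested as an interaction of sex and age, was 1.29 on the log2 scale (SE 0.149, adjusted p 3.81e-05). Without any 1 of E14.5 female replicates 1 and 3 and male replicates 2 and 3 the adjusted p at E14.5 rose to between 0.0669 and 0.0886. In bulk samples of this kind, fewer cells of a type and less RNA per cell cannot be told apart.

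Rspo1 rose with age in both sexes, in females by 1.64 on the log2 scale (SE 0.107, adjusted p 1.70e-08) and in males by 0.34 (SE 0.104, adjusted p 0.0257). The male call was lost in a fit of the 6 male libraries alone (adjusted p 0.0738), with library-size scaling (0.0793), and on leaving out any male library of either age except E16.5 replicate 3 (0.0539 to 0.110). In the uterus Rspo1 measured 41.9, 42.8 and 26.8 CPM in Amhr2+ and 43, 60.6 and 48.5 CPM in Gli1+ libraries. The Gli1+ libraries were all higher, by a narrow margin, and the difference did not pass the test (log2 fold change -0.45 of Amhr2+ over Gli1+, SE 0.198, adjusted p 0.148).

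The stretch just before the annotated start of Rspo1 lies partly in a peak of the ATAC-seq list, the authors' list of accessible regions, and is shown because the gene's transcript differed in each sex comparison. It is RefSeq's promoter sequence on GRCm38.p6 (the assembly called mm10), + strand, chr4:124986180-124986400, without the bases next to the start that an annotated exon covers. Capitals mark the bases inside the peak.
Rspo1 promoter: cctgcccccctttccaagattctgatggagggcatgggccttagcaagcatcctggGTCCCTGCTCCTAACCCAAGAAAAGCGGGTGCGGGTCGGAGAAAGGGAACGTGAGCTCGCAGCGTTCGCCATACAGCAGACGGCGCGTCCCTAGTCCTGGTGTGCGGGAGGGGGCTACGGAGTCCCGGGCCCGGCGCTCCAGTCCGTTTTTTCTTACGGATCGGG

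Rspo2, a ligand required for limb and lung development, was low in 3 of the 4 fetal groups. E14.5 females held 0.467, 0.358 and 0.507 CPM, and the males of that age 0.505, 1.43 and 0.685 CPM. Males at E16.5 held 1.67, 1.28 and 1.07 CPM, and females 14.2, 14.9 and 18.5 CPM. Each of the 3 E16.5 female libraries lay far above all others of the fetal table, and the E14.5 groups overlapped. The log2 fold change of females over males was -1.01 (SE 0.374) at E14.5 and 3.58 (SE 0.247) at E16.5, and that of E16.5 over E14.5 was 5.14 (SE 0.302) in females and 0.55 (SE 0.289) in males. Without E14.5 male replicate 2 the E14.5 sex difference was -0.47 and the male change with age 1.09. Even in E16.5 females Rspo2 was only 4.31% ± 0.719 (SD, n = 3) of the length-scaled R-spondin sum.

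In the uterus Rspo2 was present in both populations, at 11.3, 12.7 and 9.66 CPM in Amhr2+ and 9.62, 14.7 and 11.8 CPM in Gli1+ libraries. The groups overlapped. The log2 fold change was -0.10 (SE 0.170, adjusted p 0.714), so a difference was not detected at this spread. Its share of the R-spondin sum was 8.06% ± 0.671 in Amhr2+ and 4.73% ± 0.346 in Gli1+ libraries (SD, n = 3), given as a description. The sum itself was 27.5 ± 5.14 CPM per kb in Amhr2+ and 49.5 ± 8.29 in Gli1+ libraries, whereas the mean of Rspo2 was 2.20 and 2.35 CPM per kb.

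Besides the peak at its start, the nearest peak of Rspo2 lies in an intron, centred 2983 bases from the start, and is shown in capitals with 20 bases on each side. The sequence is that of the gene's strand (-) on mm10, chr15:43167768-43167920, and the stretch overlaps no annotated exon.
Rspo2 intron peak: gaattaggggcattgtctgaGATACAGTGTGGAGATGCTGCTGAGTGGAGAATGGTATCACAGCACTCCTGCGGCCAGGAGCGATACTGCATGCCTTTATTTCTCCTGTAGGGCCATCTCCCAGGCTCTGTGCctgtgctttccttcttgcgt

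Rspo3, a ligand that acts in vessels and many mesenchymes, was higher in males at both ages and rose with age in both sexes. At E14.5 it stood at 46.7, 42.7 and 45.6 CPM in females and 67.2, 61.1 and 64.6 CPM in males. At E16.5 the females held 84.9, 80.8 and 88.4 CPM and the males 141, 139 and 154 CPM. No 2 of these 4 groups overlapped. Females over males, the log2 values were -0.51 at E14.5 (SE 0.0659, adjusted p 0.000176) and -0.77 at E16.5 (SE 0.0646, adjusted p 2.53e-07). The rise with age was 0.91 in females (SE 0.0659, adjusted p 4.78e-08) and 1.17 in males (SE 0.0653, adjusted p 5.55e-09). The difference between those rises, -0.26, did not pass the test (SE 0.0919, adjusted p 0.0920).

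The largest uterine difference among the ligands was that of Rspo3. Amhr2+ libraries held 18.8, 19.51 and 18 CPM and Gli1+ libraries 59.4, 76.5 and 58.4 CPM, with a wide gap between the groups. The log2 fold change was -1.79 (SE 0.112, adjusted p 3.06e-05). Within libraries, the length-scaled ratio of Rspo1 to Rspo3 was 3.14 ± 0.663 in Amhr2+ and 1.25 ± 0.0853 in Gli1+ cells (SD, n = 3). In the fetal table the same ratio was 0.925 ± 0.0910 in females and 0.885 ± 0.0644 in males at E14.5, and 1.53 ± 0.201 in females and 0.502 ± 0.108 in males at E16.5. The E14.5 libraries of the sexes overlapped in this ratio and the E16.5 libraries did not.

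Smooth muscle and pericyte markers, a list of 6 genes that includes Acta2 and Myh11, were summed beside Rspo3. Between the sexes at each age and between the uterine populations, the group with less Rspo3 had the lower sum, though not every gene passed the test. The order did not hold over all fetal groups, as E14.5 males had less Rspo3 than E16.5 females but a higher sum. At E14.5 the sum was 200 to 214 CPM in female and 502 to 765 CPM in male libraries, with 3 of the 6 genes called lower in females and 3 not called. At E16.5 it was 299 to 395 CPM in females and 1543 to 2710 CPM in males, with 5 of 6 called lower in females. In the uterus the sum was 979 to 1690 CPM in Amhr2+ and 2045 to 2189 CPM in Gli1+ libraries, with 1 of 6 was called, lower in Amhr2+ cells, and 5 were not called. None of the 6 was at or under 3 counts in a whole group, and their part in the Rspo3 differences was not tested. In the uterus the mesenchymal list also differed, with 7 of 11 genes lower and 1 higher in Amhr2+ cells (summed level 26685 to 28540 against 54957 to 61882 CPM), and 5 of 8 epithelial genes tested were higher (160 to 180 against 105 to 127 CPM). Endothelial markers were lower in Amhr2+ cells in 3 of 6 tested (24.1 to 29.8 against 37.4 to 45.4 CPM), as were 3 of 3 erythroid genes tested (1.67 to 2.46 against 7.65 to 8.51 CPM). Between the sexes at E16.5, 4 of 7 mesothelial markers were lower and 1 higher in females (189 to 244 against 165 to 200 CPM). The higher one was Wt1, with means of 171 CPM in females and 102 CPM in males, which made up most of both sums. Every other gene of that list had a lower mean in females, so the sum does not give the direction of the list. Of 7 immune markers 4 were higher in females (32.1 to 76.3 against 14.04 to 47.9 CPM). At that age 3 of 7 gonad somatic genes tested were lower in females (46.1 to 52.4 against 66.1 to 72.8 CPM), as were 2 of 2 germ cell genes tested (0.556 to 0.857 against 1.52 to 2.37 CPM). Of 5 gonad somatic genes tested in the uterus, 1 was higher in Amhr2+ cells (73.4 to 121 against 63.5 to 66.5 CPM). The 1 germ cell gene tested there was lower in Amhr2+ cells (list sum 0.474 to 0.943 against 5.27 to 6.53 CPM). Over all genes tested, 6.28% were called by sex at E14.5, 27.3% by sex at E16.5 and 23.9% in the uterus, in either direction. The uterine counts of smooth muscle and gonad somatic genes lie near the last share, and all these lists are short. With age in females, 5 of 7 gonad somatic genes tested fell and 1 rose, and 4 of 6 endothelial genes fell. Of 7 immune genes 4 rose. In males 2 gonad somatic genes fell and 1 rose, 2 endothelial fell and 2 rose, and 2 immune rose. Smooth muscle genes rose, 6 of 6 in males and 4 of 6 in females, where 1 fell. Over all genes, 39.6% were called in females and 23.3% in males. E14.5 females had 2 of 7 immune and 2 of 6 endothelial genes higher, and 2 of 7 gonad somatic genes lower. The part of these lists in the results on the 9 genes was not tested either.

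Rspo4, a ligand known for its role in nail formation, was barely detected. It had 4 to 17 counts in the fetal libraries and 1 to 4 in the uterine ones, where it fell under the filter on low counts and was not tested. Its E14.5 values were 0.300, 0.398 and 0.362 CPM for females and 0.463, 0.281 and 0.307 CPM for males. At E16.5 the 6 libraries lay between 0.0969 and 0.169 CPM, below every E14.5 library. It fell with age by 1.48 on the log2 scale in females (SE 0.410, adjusted p 0.00986) and by 1.35 in males (SE 0.380, adjusted p 0.0169), the latter lost without E14.5 male replicate 1 (0.0589) or E16.5 male replicate 3 (0.0865), in a fit of the male libraries alone (0.0531), with no filter on low counts (0.0562) and by DESeq2 (0.0679). An antisense gene, Rspo4os, overlaps it with up to 6 fetal counts, and reads of the pair cannot be told apart in the non-stranded fetal libraries.

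**Figure D2:**
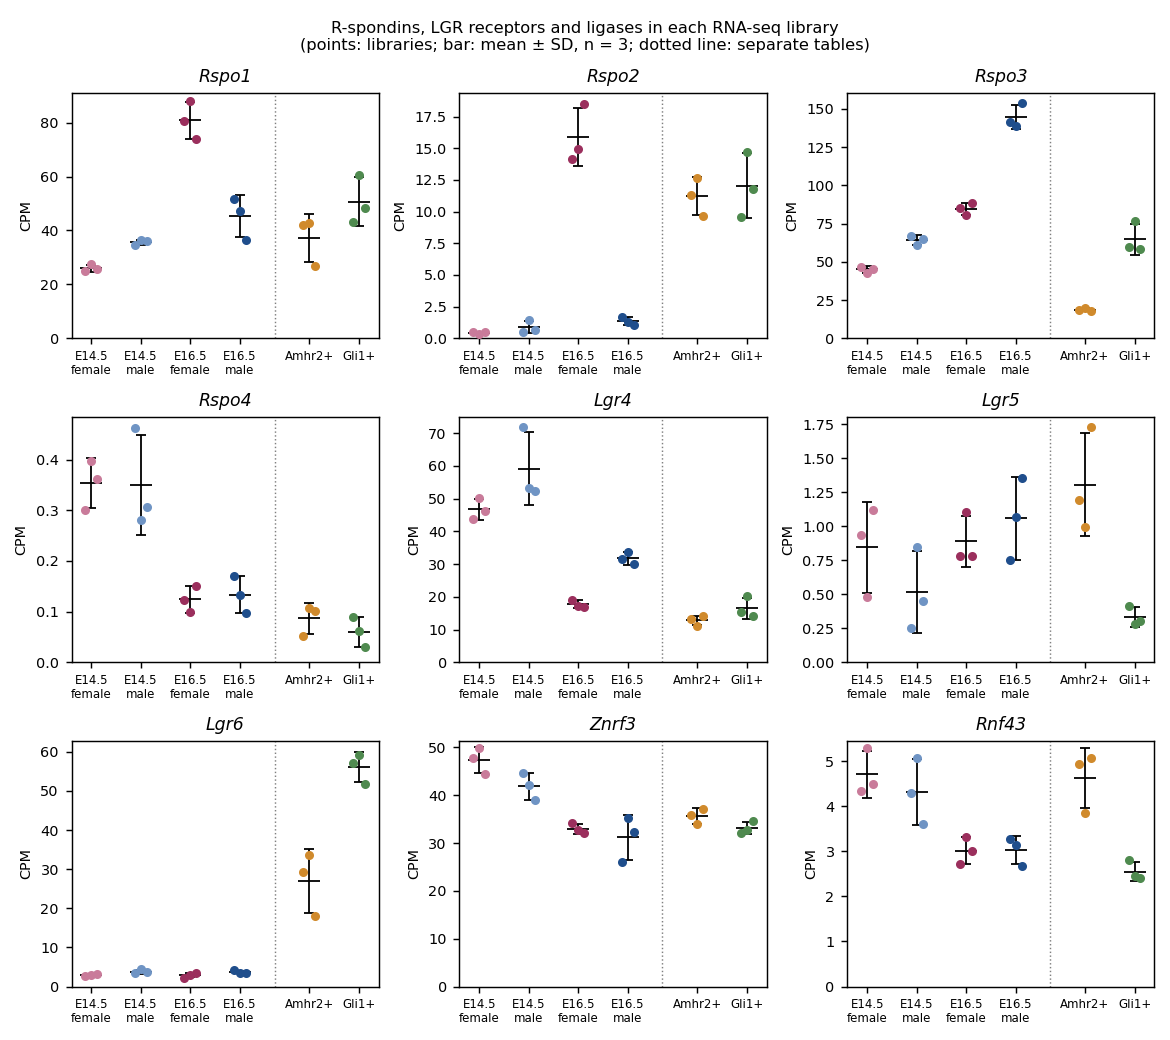
Each panel plots 1 gene in CPM by library (points) with the mean ± SD of its group (n = 3), and the vertical axes start at 0 and differ between panels. Rspo2 is near 0 in every fetal group except E16.5 females, and Rspo1 and Rspo3 are ordered oppositely by sex at E16.5.

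Lgr4, a broadly expressed R-spondin receptor, fell with age in both sexes and was lower in females at E16.5. The E14.5 females had 43.7, 50.1 and 46.1 CPM and the males 71.9, 53.2 and 52.2 CPM. By E16.5 the females had 19.2, 17.3 and 16.8 CPM and the males 31.7, 33.8 and 29.9 CPM. All 6 E16.5 libraries lay below all 6 E14.5 libraries, and the sexes did not overlap at either age. The fall was 1.39 on the log2 scale in females (log2 fold change -1.39, SE 0.112, adjusted p 1.43e-07) and 0.89 in males (-0.89, SE 0.108, adjusted p 1.72e-05). The sex difference was -0.34 at E14.5, which did not pass the test (SE 0.108, adjusted p 0.0823) except with no filter on low counts (0.0452), and -0.84 at E16.5 (SE 0.111, adjusted p 3.26e-05).

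Whether the Lgr4 sex difference changed with age depended on the fit. The interaction was -0.50 (SE 0.154, adjusted p 0.0507). It passed with same-numbered E16.5 libraries treated as pairs (adjusted p 0.0413), by DESeq2 (0.0237), with no filter on low counts (0.0205) and without E14.5 male replicate 1, the highest Lgr4 library (-0.66, adjusted p 0.00147). It also passed without E16.5 female replicate 1 (0.0487) or E16.5 male replicate 3 (0.0480). In the uterus Lgr4 stood at 13.2, 11.1 and 14.1 CPM in Amhr2+ and 15.3, 20.2 and 14.1 CPM in Gli1+ libraries, nearly touching, with a log2 fold change of -0.37 that did not pass (SE 0.154, adjusted p 0.118).

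Lgr6, a receptor known from skin and smooth muscle, was a minor receptor transcript in the fetal table and one of the 2 main ones, with Lgr4, in the uterine table. Its fetal levels ran from 2.30 to 4.36 CPM. At both ages each male library lay above each female library, with log2 fold changes of -0.37 (SE 0.172, adjusted p 0.256) and -0.38 (SE 0.166, adjusted p 0.107) that did not pass. Without E16.5 female replicate 3 the latter was -0.52 and passed (adjusted p 0.0446). Uterine Amhr2+ libraries held 29.3, 33.7 and 18 CPM and Gli1+ libraries 57.1, 59.3 and 51.8 CPM, with no overlap. Lgr6 was lower in Amhr2+ cells (log2 fold change -1.05, SE 0.207, adjusted p 0.0115), a call lost with no filter on low counts (0.0690).

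Lgr5, a receptor and stem cell marker of many epithelia, had 6 to 84 counts in the fetal libraries. It passed no fetal comparison, and its groups overlapped in each of the comparisons by sex and by age. Its rise with age in males, 0.98 on the log2 scale (SE 0.368, adjusted p 0.0665), passed with no filter (0.0396), with same-numbered male libraries as blocks (0.0326), and without E14.5 male replicate 2 (0.0174) or E16.5 male replicate 1 (0.0351). In the uterus it had 46, 37 and 51 counts in Amhr2+ and 14, 9 and 10 in Gli1+ libraries. Those counts corresponded to 1.19, 0.997 and 1.73 CPM against 0.417, 0.278 and 0.301 CPM, with no overlap. The log2 fold change was 1.95 (SE 0.328, adjusted p 0.00399). The uterine receptors thus moved in opposite directions, Lgr5 higher and Lgr6 lower in Amhr2+ cells.

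Znrf3 and Rnf43, the ligases, both fell with age and showed no sex difference that passed the test. Znrf3 ran from 39.0 to 49.9 CPM over the E14.5 and from 26.0 to 35.2 CPM over the E16.5 libraries. Its log2 fold change with age was -0.53 in females (SE 0.0956, adjusted p 0.000513) and -0.42 in males (SE 0.0952, adjusted p 0.00407). Rnf43 measured 4.34, 5.29 and 4.49 CPM in E14.5 females and 2.72, 3.32 and 3.005 CPM in E16.5 females. In males it measured 4.29, 5.07 and 3.61 CPM at E14.5 and 3.27, 3.15 and 2.68 CPM at E16.5. Neither sex had an E16.5 library as high as its lowest E14.5 library. The Rnf43 fall was -0.64 in females (SE 0.162, adjusted p 0.00562) and -0.51 in males (SE 0.159, adjusted p 0.0283). The male call was lost without E14.5 male replicate 1 or 2 or E16.5 male replicate 3 (0.0558 to 0.143), in a fit of the male libraries alone (0.0863) and with no filter (0.0506).

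In the uterus only Rnf43 of the ligases passed. It stood at 4.95, 3.85 and 5.08 CPM in Amhr2+ and 2.80, 2.44 and 2.41 CPM in Gli1+ libraries, all Amhr2+ libraries being higher. The log2 fold change was 0.86 (SE 0.175, adjusted p 0.00974), and without Amhr2+ replicate 1 the adjusted p was 0.0550. Znrf3 ran from 33.9 to 37.1 CPM in Amhr2+ and from 32.0 to 34.5 CPM in Gli1+ libraries, which overlapped, and the difference did not pass (log2 fold change 0.11, SE 0.0700, adjusted p 0.302).

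**Figure D3:**
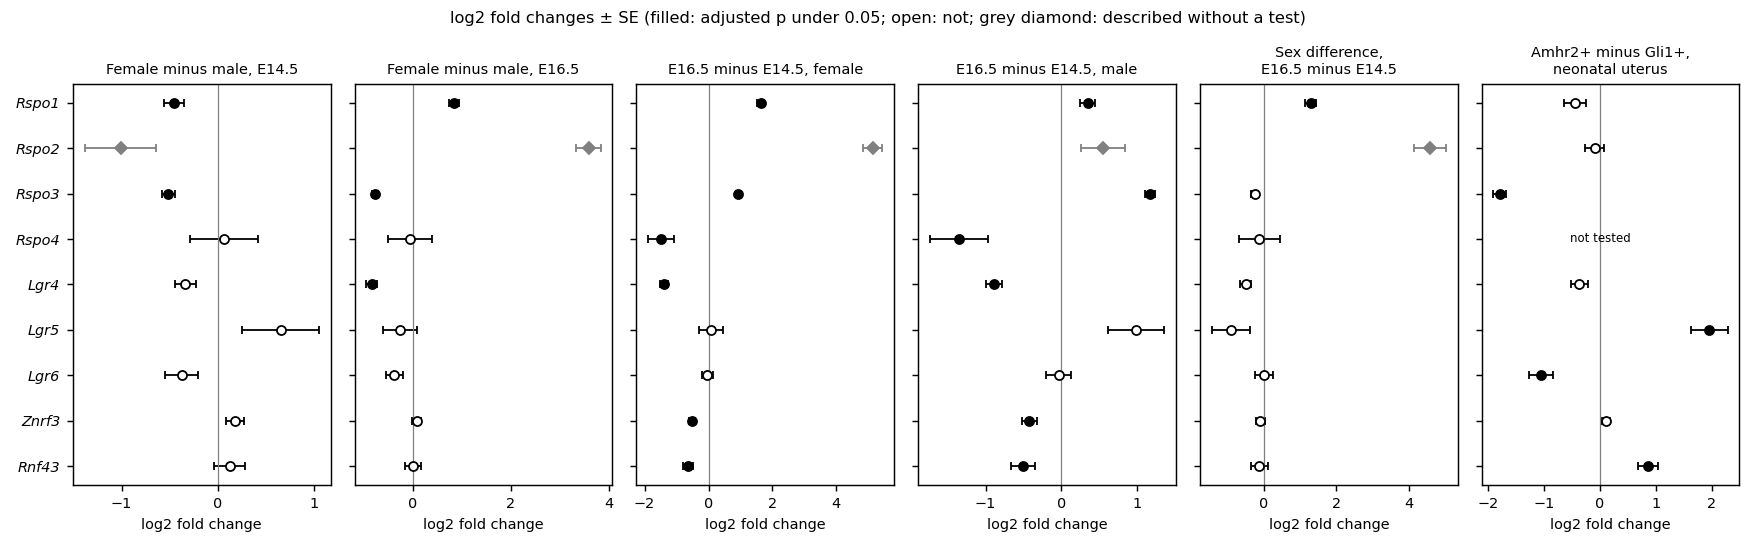
Points give the log2 fold change of each gene in 6 comparisons with its SE, filled where the adjusted p was under 0.05 and grey where described without a test (fetal Rspo2), and the horizontal axes differ between panels. Rspo1 and Rspo3 lie on opposite sides of 0 for sex at E16.5, and Lgr4, Znrf3, Rnf43 and Rspo4 lie left of 0 in both age panels while Rspo1 and Rspo3 lie right of it.

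Counted over the 8 genes other than Rspo2, 2 were called between the sexes at E14.5 (Rspo1 and Rspo3, both lower in females), where 6.28% of the 17858 genes tested were called. At E16.5 the count was 3 of 8 (Rspo1 higher, Rspo3 and Lgr4 lower in females) against 27.3% of all genes. With age 6 of 8 were called in females, against 39.6%. In males it was also 6 of 8, against 23.3%, and 3 of 8 without E14.5 male replicate 1 or in a fit of the male libraries alone. The genes and their directions were the same in both sexes, with Rspo1 and Rspo3 up and Lgr4, Rnf43, Rspo4 and Znrf3 down. The interaction gave 1 of 8 (Rspo1) against 10% of all genes, and 2 of 8 with the E16.5 libraries paired. In the uterus, where Rspo2 was tested and Rspo4 was not, 4 of 8 were called (Lgr5 and Rnf43 higher, Rspo3 and Lgr6 lower in Amhr2+ cells), against 23.9% of 16195 genes. The female and male age comparisons share no library, but each shares libraries with the sex comparisons. A list of 8 is short, and these counts are given as a description.

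Ligand and receptor totals moved apart with age. The length-scaled R-spondin sum at E14.5 was 28.2 ± 0.0893 CPM per kb for females and 39.5 ± 0.485 for males (SD, n = 3). At E16.5 it was 72.2 ± 2.05 in females and 70.5 ± 2.11 in males, which overlapped. The LGR sum was 8.45 ± 0.551 and 10.7 ± 1.81 CPM per kb at E14.5, and 3.53 ± 0.131 and 6.06 ± 0.318 at E16.5, in females and males. The ratio of the sums in each library was 3.35 ± 0.214 for females and 3.77 ± 0.568 for males at E14.5. At E16.5 it was 20.5 ± 0.928 for females and 11.7 ± 0.619 for males, the 4 groups separating by age and, at E16.5, by sex. In the uterus the ratio was 4.39 ± 0.195 in Amhr2+ and 4.48 ± 0.473 in Gli1+ libraries, which overlapped.

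The wider Wnt pathway was counted from 4 lists. The share of all tested genes called, in either direction, is the one given above for each comparison (6.28% and 27.3% by sex at E14.5 and E16.5, 39.6% and 23.3% with age in females and males, 23.9% in the uterus). Of 12 Frizzled and LRP receptors, 2 were higher and 1 lower in females at E14.5 and 3 higher and 1 lower at E16.5. Fzd10 was the largest of these at both ages (log2 fold change 0.89 and 0.76, adjusted p 0.00302 and 0.00211). With age 1 rose and 5 fell in females and 2 rose and 4 fell in males. In the uterus 3 were lower in Amhr2+ cells and none higher, Fzd4 most (-1.12, adjusted p 0.00176). The counts at E16.5 and in the uterus, 4 and 3 of 12, lie near these shares. The median log2 fold change of the 12 was between -0.22 and 0.10 over these comparisons, beside medians of all tested genes between -0.01 and 0.01.

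Of 19 Wnt ligands, 13 were tested in the fetal table. At E16.5, 4 were higher and 7 lower in females, with a median of -0.45, where 13.2% of all genes were higher and 14.1% lower. Wnt7a, the ligand of the female duct epithelium, had 0 counts in the 3 E16.5 male libraries and a mean of 0.731 CPM in females, which was at least 34.3-fold higher against a floor of 3 counts over the group. The median is the same with Wnt7a at this bound. At E14.5, 2 were higher and 4 lower in females (median 0.06). With age 3 rose and 6 fell in females (median -0.28) and 1 rose and 4 fell in males (median -0.23), where Wnt4 fell by 1.53 (adjusted p 1.06e-07). In the uterus 2 of 11 were higher and 2 lower in Amhr2+ cells (median 0.10), among them Wnt5a (0.64, adjusted p 0.000463) and Wnt11 (-1.11, adjusted p 0.00205).

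Transcriptional targets and feedback inhibitors of Wnt/beta-catenin signalling fell with age alongside Znrf3 and Rnf43. Of 11 tested, 9 fell in females (median -0.62) and 8 in males (median -0.70), and none rose. Over all tested genes 18.6% fell in females and 10.2% in males. Notum, which inactivates Wnt ligands by removing their lipid, fell by 2.30 in females (adjusted p 3.59e-09) and by 1.21 in males (adjusted p 3.67e-06). Tcf7, a transcription factor of the pathway, fell by 1.44 in females (adjusted p 3.67e-09). In the uterus 6 of 8 were higher in Amhr2+ cells and none lower (median 0.65, against 10.1% of all genes higher), among them Tnfrsf19 (1.10, adjusted p 3.06e-05) and Nkd2 (0.75, adjusted p 0.000157). Rnf43 had the same direction there, whereas the Znrf3 difference did not pass (0.11, adjusted p 0.302). Between the sexes 5 of the 11 targets were higher and 2 lower in females at E14.5 (median 0.22), and 3 higher and 1 lower at E16.5 (median -0.01).

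Glypicans and syndecans, cell surface proteoglycans that bind R-spondins and Wnt ligands, moved in both directions. Of 9 tested, 3 were higher and 3 lower in females at E16.5, 1 and 1 at E14.5, and 2 and 1 in uterine Amhr2+ cells, beside the shares of all genes given for the Wnt receptors. With age 2 rose and 3 fell in females, and 4 rose and 3 fell in males. Their median was between -0.06 and 0.14 over these comparisons. Gpc1 was lower in females at both ages (-0.34, adjusted p 0.00291, and -0.77, adjusted p 1.09e-07) and higher in uterine Amhr2+ cells (0.37, adjusted p 0.00346).

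The genes whose pattern most resembled that of a member were taken by the Pearson correlation of log2 CPM over the 12 fetal libraries, among 10456 genes. Closest to Rspo1 were Ube2ql1, Egfl6, Fam65c, Trpm5 and Eno2 (r from 0.981 to 0.985). For Rspo2 they were Nova1, Aebp1, Rarg, Rasa4 and Gria1 (0.978 to 0.981), and for Rspo3 Gsr, Cnmd, Ogn, Mkx and Anxa6 (0.987 to 0.993). Those closest to Lgr4 were Specc1, Plxna2, Dock11, Hapln3 and Pcsk5 (0.974 to 0.979). The libraries share their group structure and their scaling, so these values describe likeness over 4 group levels and no more.

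Accessible chromatin was known only as 1 list of 71040 peaks, unified by the authors over the 8 ATAC-seq samples of fetal Gli1+ cells, with no value per sample. All 9 genes had a peak within 1 kb of their start, as did 79.0% of the tested fetal genes with coordinates. A peak overlapping the start base itself was present at 8 of 9 against 65.8%. Rspo4 and Lgr5 had such a peak in spite of their low transcript counts. Peaks within 1 kb of the start or in the gene body numbered 33 in all. Lgr6 had 7, Znrf3 6, Rspo2, Lgr4 and Rnf43 4 each, Rspo3 3, Rspo1 and Rspo4 2 each and Lgr5 1. By place, 10 lay at starts, 21 in introns and 2 in exons.

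**Figure D4:**
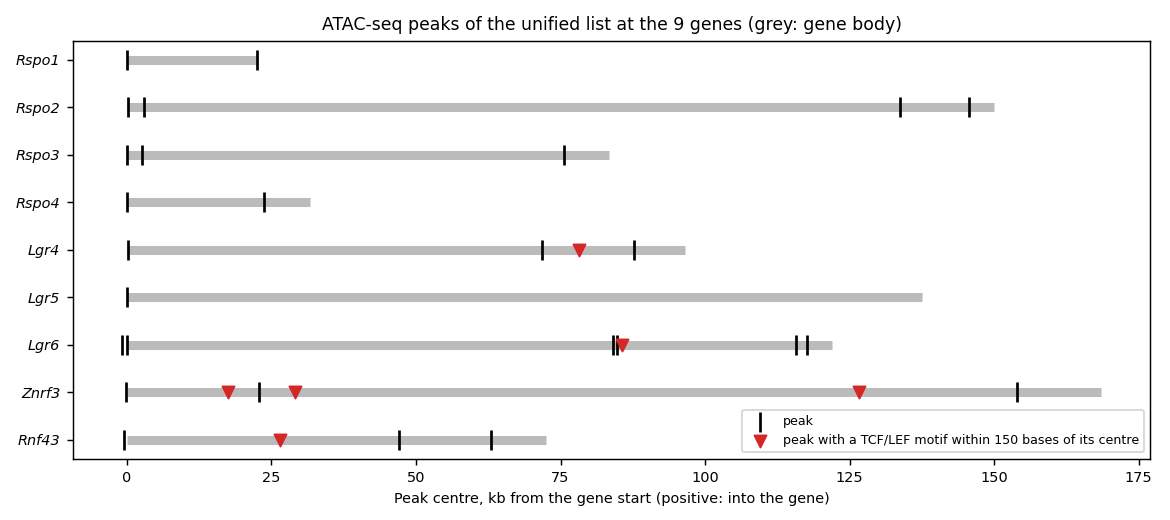
Ticks mark the centre of each peak in kb from the start of the gene, grey bars the gene bodies, and triangles the peaks with a TCF/LEF motif within 150 bases of the centre. All 6 triangles lie in gene bodies of Lgr4, Lgr6, Znrf3 and Rnf43, and none at a start.

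TCF/LEF factors carry out the transcriptional response to Wnt, and their usual letters, CTTTGAT or CTTTGAA, were searched on both strands in the 300 bases around each peak centre. They stood in 6 of the 33 windows, against 11.2% of 70999 windows over the whole list. Znrf3 had 3 of the 6, and Lgr4, Lgr6 and Rnf43 1 each, and the 11 windows of the R-spondin genes had none. At a share of 11.2%, windows this few cannot tell the ligand genes from the receptor and ligase genes, or the 33 from the whole list. The 9 letters GACCACCCA, the core of the GLI motif of hedgehog signalling, stood in none of the 33 windows and in 0.463% of all. In the 250 bases before the start, the 6 RefSeq promoters (GRCm38.p6) of the 5 genes that matched, Lgr4, Lgr6, Rnf43, Rspo1 and Rspo4, held none of the 3 motifs. Over all 32851 promoters of that table the shares were 3.21% for CTTTGAT, 4.46% for CTTTGAA and 0.225% for GACCACCCA. A match is a description of letters, and no factor's binding was measured.

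The 6 matches are shown because they lie in introns of a ligase or receptor gene. Each sequence is on mm10 and reads along the gene's strand, with the motif in capitals and 50 bases on each side, and TTCAAAG is CTTTGAA on the other strand. None of the stretches overlaps an annotated exon. The Znrf3 stretches are chr11:5427297-5427403, chr11:5415704-5415810 and chr11:5318145-5318251 (all -), shown as a, b and c in order from the start of the gene. The Rnf43 stretch is chr11:87689503-87689609 (+), that of Lgr6 chr1:135019629-135019735 (-) and that of Lgr4 chr2:109995586-109995692 (+). The Lgr4 motif lies inside the 300-base window but outside the peak itself, and the other 5 lie inside their peaks.
Znrf3 intron a: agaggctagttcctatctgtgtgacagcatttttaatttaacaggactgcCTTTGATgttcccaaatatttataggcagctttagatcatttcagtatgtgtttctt
Znrf3 intron b: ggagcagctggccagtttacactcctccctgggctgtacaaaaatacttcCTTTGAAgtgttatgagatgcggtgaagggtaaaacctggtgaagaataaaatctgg
Znrf3 intron c: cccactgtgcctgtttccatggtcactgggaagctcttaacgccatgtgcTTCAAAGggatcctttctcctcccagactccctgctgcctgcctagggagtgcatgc
Rnf43 intron: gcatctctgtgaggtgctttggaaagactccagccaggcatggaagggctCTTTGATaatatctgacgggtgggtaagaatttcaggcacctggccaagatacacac
Lgr6 intron: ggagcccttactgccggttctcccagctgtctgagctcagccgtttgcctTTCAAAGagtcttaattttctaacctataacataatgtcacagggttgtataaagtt
Lgr4 intron: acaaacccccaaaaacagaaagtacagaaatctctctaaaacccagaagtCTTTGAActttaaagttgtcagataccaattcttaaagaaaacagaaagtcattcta

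On mm10, Rspo1 spans 124986430 to 125009099 of chromosome 4 (+), Rspo2 43020794 to 43170826 of chromosome 15 (-), Rspo3 29452418 to 29535867 of chromosome 10 (-) and Rspo4 151842927 to 151874668 of chromosome 2 (+). Lgr4 spans 109917647 to 110014257 of chromosome 2 (+), Lgr5 115450311 to 115587780 of chromosome 10 (-) and Lgr6 134983301 to 135105276 of chromosome 1 (-). Both ligase genes are on chromosome 11, Znrf3 at 5276324 to 5444847 (-) and Rnf43 at 87663087 to 87735539 (+). Besides Rspo4, other rows of the tables overlap Rspo1, Rspo3, Lgr5 and Rnf43, and none of those rows had more than 42 counts in a fetal or 14 in a uterine library.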

How the data were processed

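The authors deposited raw read counts per gene, 1 column per library, for 12 fetal and 6 uterine libraries. Per the submitters' processing notes, STAR 2.5, featureCounts (Subread 1.5.0-p1), MACS2 2.1.1 and Bowtie 1.2 were among the tools, and mm10 was the build; the annotation and the use of strand in counting are not given in the sources used here. Per the labels' protocols, the fetal kit was non-stranded and the uterine kit stranded. No further per-sample columns were present, and 64 repeated symbols were given a suffix.

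Counts were tested in edgeR 4.0.16 (R 4.3.3) by quasi-likelihood F-tests: filterByExpr by group, TMM scaling, robust estimation, Benjamini-Hochberg adjustment over all genes tested and a threshold of 0.05. One model of 4 group means held the 12 fetal libraries, which tested 17858 genes; the 6 uterine libraries had their own, with 16195 genes. The SE is the log2 fold change divided by the root of F. CPM uses the TMM-scaled library size, and the exon length per kb merges GENCODE vM21 exons on GRCm38. A floor of 3 counts came to between 0.0484 and 0.126 CPM for fetal samples and between 0.0777 and 0.102 CPM for uterine ones, for counting error only. No 2 replicates agreed within sampling noise (chi-square per degree of freedom 3.62 to 89.7). The edgeR step was tested on simulated data.

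Members and lists were chosen with earlier results of these data known. From each Wnt list the text could name up to 3 genes per comparison, those of largest change among called genes without overlap. Genes like a member needed 10 CPM in their highest group, and the prior count of log2 CPM was 2. The fits reported used group means without pairing, and replicate numbers entered only alternative runs. Same-numbered libraries were taken as pairs where every pair's deviations from the group means correlated above 0.1. This held between the sexes at E16.5 (0.284, 0.115 and 0.396), where the unmatched female replicate 2 and male replicate 1 also correlated at 0.108. Alternatives were library-size scaling, no filter, DESeq2 1.42.0, only the libraries compared, replicate blocks, longest-transcript lengths, other peak windows and leaving out each library.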

Additional observations from a re-analysis of the deposited data

Results flagged for a closer look

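The sex difference of Rspo1 differed between the ages by the interaction test, with a value of 1.29 on the log2 scale: females were lower at E14.5 (-0.45) and higher at E16.5 (0.84). That of Rspo2 differed by 4.59 (SE 0.435), a value known beforehand and given without a test, from -1.01 at E14.5 to 3.58 at E16.5. Without E14.5 male replicate 2 the Rspo2 value was 4.05.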

How the results depend on the processing

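No log2 fold change of the 9 genes that passed the test reversed under any alternative run. Leaving out each library gave the following ranges of the number of the 8 tested genes called: by sex 1 to 2 (E14.5) and 3 to 4 (E16.5), by age 6 to 6 in females and 3 to 6 in males, 1 to 2 for the interaction and 3 to 4 in the uterus. Over all genes, the same omissions gave 553 to 1678, 3618 to 5745, 5249 to 6460, 3364 to 3924, 1335 to 2687 and 1949 to 3521 calls. At E14.5 the count fell below 1121 to between 553 and 686 without any 1 library except E14.5 male replicate 1, whose omission gave 1678. The interaction calls rose from 1790 to 2687 without E16.5 male replicate 1, and the uterine ones fell from 3866 to 1949 and 2521 without replicate 1 of Amhr2+ or of Gli1+.

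A fit of only the male libraries called 3 of 8 genes with age. The interaction called 2 of 8 with no filter, by DESeq2 and with the replicate block within E16.5 only (added after seeing the data), and 3 of 8 with the replicate block within each age, where Rspo3 joined (-0.26, adjusted p 0.0380). At E14.5 the same-numbered correlations were 0.0725, 0.0504 and 0.0508, and in the uterus 0.00176, 0.221 and 0.243, so those numbers were not taken as pairs. The pairing at E16.5 changed no other call of these genes. With library-size scaling 1847 of 4488 called genes were higher at E16.5 in males (2340 of 4167 in the analysis reported), and 2849 of 4489 were higher in Amhr2+ cells (1642 of 3866). Depth limits Rspo4 most, with 1 to 4 counts in the uterine libraries.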
